A study of Ovis aries with 12 samples.

Results

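Neurexophilins and complexins are 2 small families of synaptic genes, and their 8 members were followed here through RNA sequencing of sheep hippocampus. The members, NXPH1 to NXPH4 and CPLX1 to CPLX4, were picked by symbol from a table of 33609 genes. All 8 were in the table, and 7 of them had enough counts to be among the 17806 genes tested. CPLX4 did not pass. The families were taken up because NXPH3 and CPLX3 stood among the lowest ratios of dorsal over ventral level in an earlier analysis of these counts. The values between regions are therefore given for the members as a description with no test, and tests are given for chronic stress and for other genes of the same pathways.

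The tissue came from 12 adult Ile-de-France ewes, females of a French sheep breed, of which 6 lived under chronic stress and 6 were controls. The 4 groups were dorsal hippocampus of stressed ewes, dorsal hippocampus of control ewes, ventral hippocampus of stressed ewes and ventral hippocampus of control ewes. Each group held 3 libraries, and each library was an equal mix of RNA from 2 ewes. Both regions came from the same ewes, so that dorsal and ventral libraries are not fully independent, and differences between single ewes are averaged inside a pool. The labels do not say what the stress consisted of, and they name dorsal tissue DG without saying if it was more than the dentate gyrus.

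Neurexophilins are secreted glycoproteins that bind alpha-neurexins, adhesion molecules on the presynaptic membrane which also hold neuroligins, cerebellins and other partners across the cleft. In rodents NXPH1 is found mostly in inhibitory interneurons, and NXPH3 in deep cortical neurons of layer 6b. Complexins are small proteins that bind the assembled SNARE complex, the machine that fuses synaptic vesicles with the membrane, and they both restrain and promote release. CPLX1 and CPLX2 are the main forebrain forms, whereas CPLX3 and CPLX4 are best known from ribbon synapses of the retina, with CPLX3 also found in layer 6b of the rodent cortex.

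Library totals ran from 12254743 to 53775720 counts, and every dorsal stress library was shallower than every dorsal control library. Levels are given in CPM, the counts of a gene scaled to a common library total, after TMM scaling, which corrects for differences in library makeup. The spread within groups was wide: the first principal component of log2 CPM (PC1) took 50.04% of the variance without parting the groups, and the ventral control libraries alone lay at -103, -21.0 and 105 on it. The second component took 18.9% and parted the regions. Markers of excitatory hippocampal neurons summed to between 898 and 1790 CPM over the 12 libraries, while TDO2 of the dentate granule cell list and SST of the interneuron list were listed at 0 counts in every library.

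NXPH3, the neurexophilin of deep cortical neurons in rodents, was low in every dorsal library and well above that in every ventral one. It stood at 1.24, 2.03 and 0.981 CPM in dorsal stress libraries and at 0.985, 1.91 and 1.45 CPM in dorsal control libraries. The ventral stress libraries had 16.5, 43.1 and 24.1 CPM and the ventral control libraries 22.1, 35.8 and 19.1 CPM. Every dorsal library lay below every ventral library, and stress and control libraries overlapped within each region. The mean was 1.42 ± 0.545 and 1.45 ± 0.463 CPM in the dorsal groups and 27.9 ± 13.7 and 25.7 ± 8.91 CPM in the ventral groups, stress before control (SD, n = 3 each). The fitted log2 fold change, dorsal over ventral and averaged over conditions, was -4.21 ± 0.34 (SE), an 18.6-fold lower level. It was -4.28 ± 0.48 in stressed and -4.15 ± 0.47 in control ewes. In bulk tissue such a difference cannot be parted into fewer cells that carry the transcript and less transcript per cell.

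NXPH4, a further neurexophilin, followed the same split at lower counts. Dorsal stress libraries had 1.74, 0.963 and 0.490 CPM, the last of them from 6 reads, and dorsal control libraries 2.42, 0.607 and 1.95 CPM. In the ventral stress libraries it stood at 5.22, 19.6 and 6.32 CPM, and in the ventral control libraries at 13.3, 19.7 and 4.82 CPM. The highest dorsal library, at 2.42 CPM, was below the lowest ventral one, at 4.82 CPM, but libraries of a single ventral group differed by up to 4.10-fold. The log2 fold change was -3.09 ± 0.54, or 8.49-fold lower in dorsal tissue.

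NXPH1 and NXPH2 showed a smaller regional difference with overlapping ranges. Over the 6 dorsal libraries NXPH1, the interneuron form in rodents, had a lowest, median and highest level of 9.20, 18.6 and 22.1 CPM, against 14.3, 30.1 and 44.8 CPM over the 6 ventral libraries. NXPH2 had 2.64, 5.07 and 7.27 CPM in dorsal and 4.78, 12.6 and 20.4 CPM in ventral libraries. For both genes the overlap came from a single library, ventral control 1, which had the lowest ventral level. The log2 fold changes were -0.89 ± 0.30 for NXPH1 and -1.35 ± 0.37 for NXPH2. Taken by group means, the order of NXPH2 was ventral stress (14.5 CPM), ventral control (11.6 CPM), dorsal stress (5.54 CPM) and dorsal control (4.67 CPM), with overlapping ranges between every pair of neighbours, and NXPH1 had the same order.

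CPLX3, the ribbon synapse complexin, gave nearly the picture of NXPH3. Its dorsal stress libraries had 2.59, 2.03 and 0.981 CPM and its dorsal control libraries 1.77, 2.00 and 1.68 CPM. The ventral stress libraries had 16.3, 46.4 and 22.6 CPM, and the ventral control libraries 30.7, 40.4 and 26.9 CPM. No dorsal library came near the ventral range, and within each region the stress and control ranges overlapped. The log2 fold change was -4.03 ± 0.32, a 16.4-fold lower level in dorsal tissue, with -3.91 ± 0.46 in stressed and -4.16 ± 0.46 in control ewes. Library by library, CPLX3 stayed close in proportion to NXPH3: the ratio of CPLX3 to NXPH3 in CPM ranged from 0.937 to 2.08 with a median of 1.10. The ratio does not compare expression between the genes, because transcript lengths were not used.

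**Figure D1:**
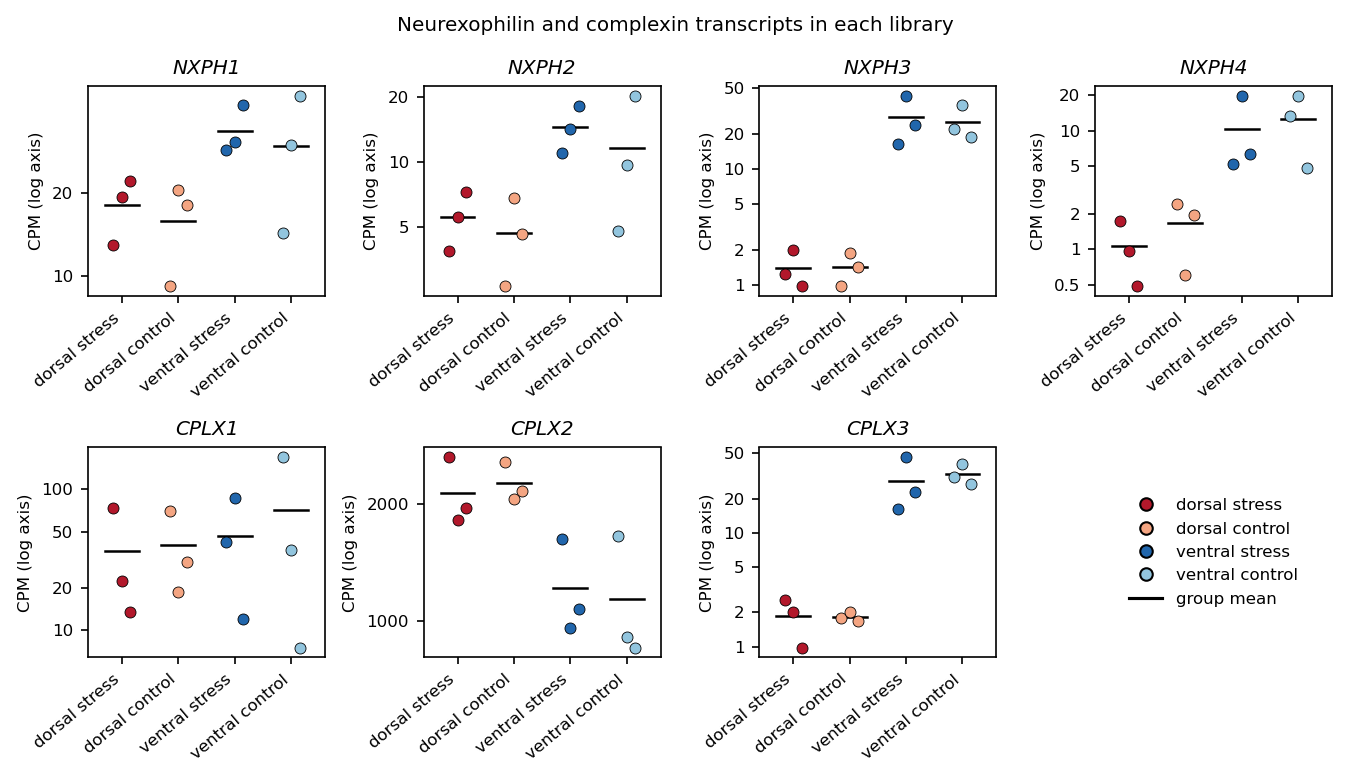
Level of the 7 members with counts in each of the 12 libraries, in CPM on a log axis; points are libraries and lines are group means of 3. NXPH3, NXPH4 and CPLX3 lie lower and CPLX2 higher in all 6 dorsal libraries than in any ventral library, and CPLX1 is spread widely within every group.

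CPLX2, a main forebrain complexin, was the member with the opposite regional order. It stood at 2642, 1822 and 1955 CPM in dorsal stress libraries and 2565, 2065 and 2156 CPM in dorsal control libraries. The ventral stress libraries had 1626, 959 and 1074 CPM, and the ventral control libraries 1655, 911 and 855 CPM. All 6 dorsal libraries were above all 6 ventral ones, with ventral control 1, at 1655 CPM, closest to the lowest dorsal library, at 1822 CPM. The log2 fold change was 0.90 ± 0.21, or 1.86-fold higher in dorsal tissue, and was 0.81 ± 0.30 in stressed and 0.99 ± 0.30 in control ewes.

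In all, 4 of the 8 members had no overlap between the dorsal and ventral libraries, 3 of them lower and 1 higher in dorsal tissue. Among the genes tested 4.90% had no overlap, 2.93% lower and 1.97% higher in dorsal tissue. These shares are given for scale only, since the members were taken up with these values known.

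CPLX1, the other main forebrain complexin, differed more within groups than between them. The dorsal stress libraries had 73.1, 22.5 and 13.4 CPM and the dorsal control libraries 70.3, 18.8 and 30.7 CPM. The ventral stress libraries had 42.1, 86.7 and 12.0 CPM, and the ventral control libraries 169, 37.4 and 7.53 CPM. Levels within a single group thus differed by 5.45-, 3.73-, 7.20- and 22.5-fold in that order, and all 4 ranges overlapped. The SD of log2 CPM within groups was 1.55, against a median of 0.40 over the 3051 genes of like mean level (within 0.5 log2 CPM), and 99.7% of those genes had a smaller one. For the other 6 members between 51.9% and 83.2% of genes of like level had a smaller SD. The regional log2 fold change of CPLX1 was -0.60 ± 0.74, and it was 0.24 ± 0.66 without ventral control 1.

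The spread of CPLX1 ran along PC1. Ventral control 1, at the low end of that component with -103, had the highest CPLX1 level, and ventral control 3, at the high end with 105, had the lowest. NXPH1 ran the other way, with 14.3 and 44.8 CPM in the same pair of libraries, and so did NXPH2, with 4.78 and 20.4 CPM. PC1 was computed from all genes tested, the members included, and what sets it was not tested. As deviations from the group means over the 12 libraries, CPLX1 was most like FBXL15, MBOAT7, ESPN, IL4I1 and GDF1 (Pearson r from 0.997 to 0.999), whose regional log2 fold changes lay between -0.27 and -0.07. The correlation of such deviations was -0.92 between CPLX1 and NXPH1 and 0.97 between NXPH1 and NXPH2, values that share library composition and sequencing depth.

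**Figure D2:**
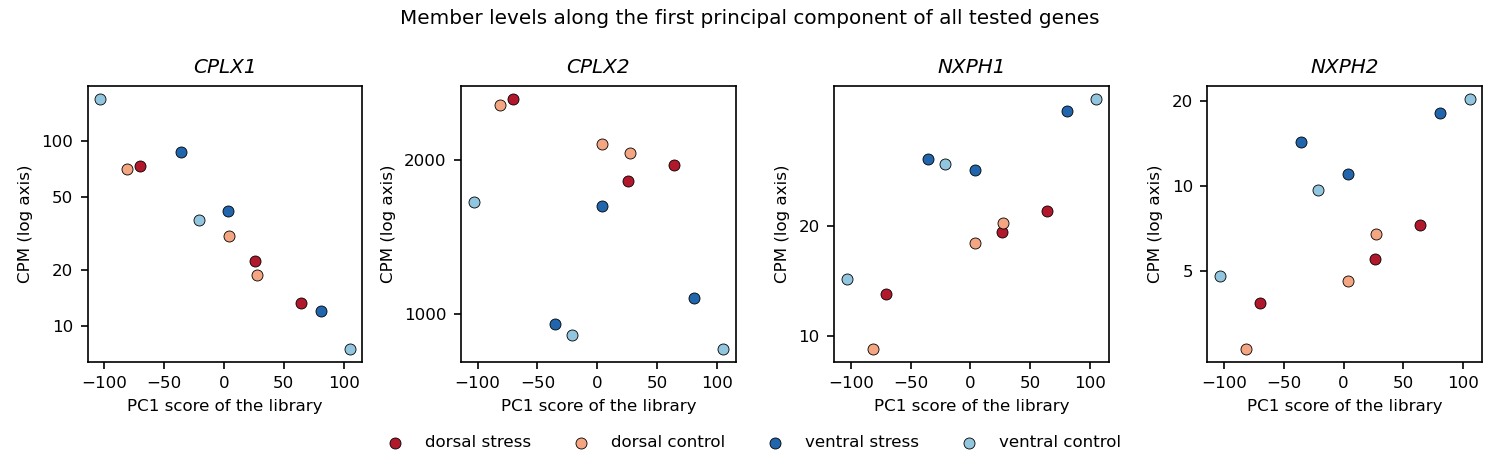
Levels of CPLX1, CPLX2, NXPH1 and NXPH2 in CPM on a log axis against the score of each library on PC1 of all tested genes; points are the 12 libraries, coloured by group. CPLX1 is lowest at 7.53 CPM in the library with the highest score (105), and NXPH1 and NXPH2 are highest there.

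CPLX1 reads as a share of CPLX1 and CPLX2 reads together show the same spread. The share was highest in ventral control 1, at 9.27% (95% Clopper-Pearson interval 9.07 to 9.48), and in ventral stress 2, at 8.29% (7.96 to 8.62). It was lowest in dorsal stress 3, at 0.681% (0.581 to 0.793), and in ventral control 3, at 0.873% (0.772 to 0.983). These intervals cover counting error only and do not include the spread between pools.

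CPLX4, the other complexin of retinal ribbon synapses, was listed at 0 counts in all 12 libraries. By counting error alone, with 3 counts as the limit, this allows up to 0.0591 CPM in the deepest library and 0.245 CPM in the shallowest. SST, an interneuron gene, was listed at 0 throughout as well, and without the annotation and the rule for multiply mapped reads a listed 0 cannot be told apart from a gene whose reads were not counted.

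Chronic stress was the comparison independent of how the members were taken up. In edgeR 0 of the 7 members tested passed for stress against control in dorsal tissue, in ventral tissue, averaged over both or in the difference between the regions, and 0 had an unadjusted p under 0.05 in any of the 4. Their adjusted p-values were 0.9998 or above. DESeq2 and limma-voom called 0 members as well. Over all genes tested edgeR called 0.00% in each of the 4 comparisons, with 152, 142, 308 and 46 genes at an unadjusted p under 0.05. These were 0.854%, 0.797%, 1.73% and 0.258% of the genes tested, each below the share such a threshold gives on average with no effect. The absence of calls is therefore weak evidence on stress, and the cause of the low shares was not tested. DESeq2 called 1, 1, 14 and 0 genes and limma-voom 0.

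The sizes of the stress effects, averaged over regions, ranged from -0.45 to 0.28 on the log2 scale. For CPLX2, the most precisely measured member, the effect was 0.01 ± 0.21, with a 95% interval from -0.45 to 0.47. For CPLX3 it was -0.07 ± 0.29 (-0.72 to 0.57) and for NXPH3 0.05 ± 0.30 (-0.62 to 0.73). In this fit dorsal and ventral libraries counted as independent, although both came from the same ewes, which could make the averaged intervals too narrow. They could also be too wide, given the low share of genes, 1.73%, at an unadjusted edgeR p under 0.05 in this comparison. With the replicate number added to the fit, the SE fell from 0.30 to 0.17 for NXPH1 and from 0.36 to 0.23 for NXPH2. As fitted without it, the averaged intervals exclude a doubling or a halving by stress for the 3 genes, that is a log2 change of 1 in either direction. NXPH1 had 0.18 ± 0.30 (-0.47 to 0.84), which excludes such a change as well, but the upper bound reached 1.01 without dorsal control 2 and 1.02 without ventral control 3. The intervals of CPLX2, CPLX3 and NXPH3 stayed within that limit without each of the 12 libraries in turn. NXPH2, at 0.28 ± 0.36 (-0.52 to 1.08), could hold a doubling. NXPH4, at -0.45 ± 0.51 (-1.57 to 0.68), and CPLX1, at -0.37 ± 0.74 (-2.01 to 1.27), were measured too loosely to exclude a change of that size. A p-value that misses the threshold does not show that stressed and control ewes were alike.

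Within regions the intervals were wider, and of the 7 members CPLX2 alone excluded a log2 change of 1 in both (-0.73 to 0.57 in dorsal and -0.55 to 0.75 in ventral tissue). In dorsal tissue the stress effects lay between -0.61 for NXPH4 and 0.24 for NXPH2, and in ventral tissue between -0.61 for CPLX1 and 0.32 for NXPH2. Stress and control ranges overlapped for all 7 members in both regions. Of the genes tested 5.13% had no overlap in dorsal and 2.86% in ventral tissue. The regional difference itself did not pass a test of dependence on stress in any member: the difference of the stress effects was -0.14 ± 0.61 for NXPH3, 0.26 ± 0.58 for CPLX3, -0.33 ± 1.02 for NXPH4 and -0.18 ± 0.42 for CPLX2 (edgeR adjusted p = 1).

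**Figure D3:**
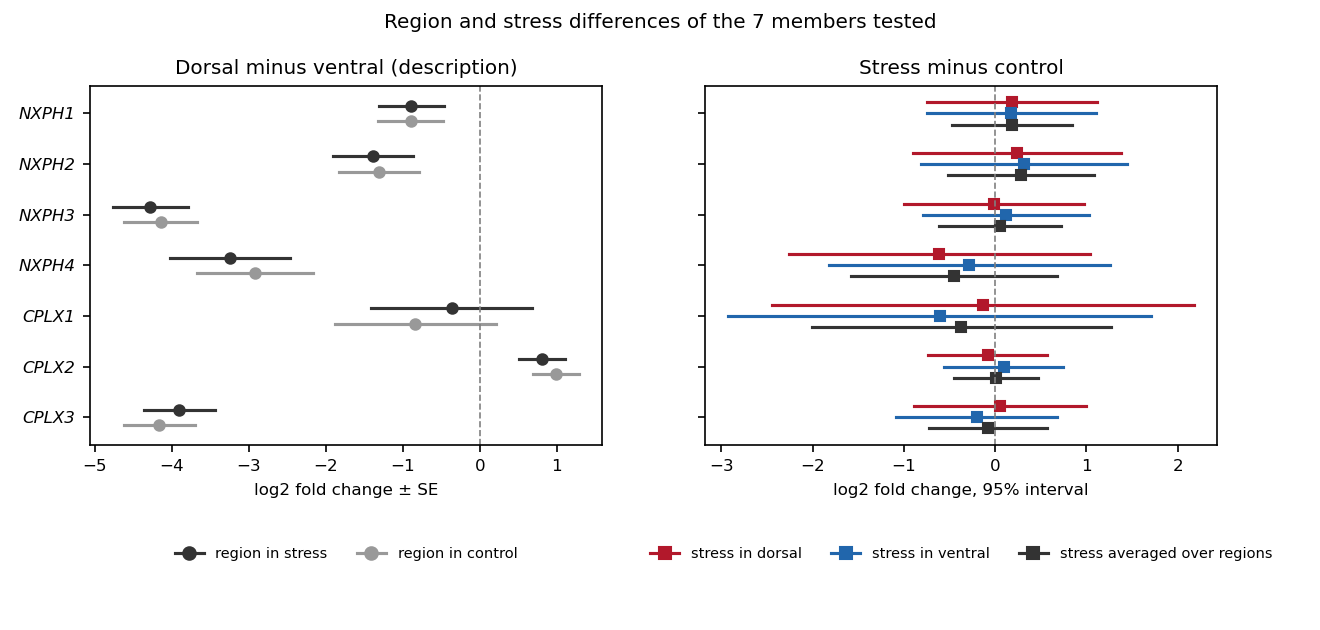
Log2 fold changes of the 7 members tested. Left, dorsal over ventral in stressed and in control ewes with bars of 1 SE, from -4.28 for NXPH3 to 0.99 for CPLX2; right, stress over control in dorsal tissue, ventral tissue and averaged, with 95% intervals that all include 0.

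Among the other partners of neurexins, 1 of 23 genes differed between regions. CBLN4, a secreted cerebellin that links neurexins to postsynaptic receptors, was lower in dorsal tissue (log2 fold change -2.08 ± 0.37, edgeR adjusted p = 0.0104). Its level was 8.99 ± 3.52 and 9.66 ± 2.78 CPM in dorsal stress and dorsal control, against 40.3 ± 10.7 and 38.7 ± 24.2 CPM in ventral stress and ventral control (SD, n = 3 each). The share of 4.35% called is near the 4.51% of all genes tested, of which 1.44% were called higher and 3.07% lower. The neurexin genes NRXN2, at -0.51 ± 0.24, and NRXN3, at -0.86 ± 0.37, did not pass (edgeR adjusted p = 0.405 and 0.320). The 4 neuroligins NLGN1, NLGN2, NLGN3 and NLGN4X lay between -0.15 and 0.10, also without passing. The median of the list was -0.29 against -0.02 over all genes tested. With a choroid plexus score as covariate, which itself differs between regions, CBLN4 lost its call with a wider SE (-2.63 ± 0.67, adjusted p = 0.0727). Without ventral control 1 the list held 3 called genes.

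Of 20 genes of the release machinery on which complexins act, 4 were lower in dorsal tissue and 0 higher. STX1A, a SNARE protein of the presynaptic membrane, had -0.88 ± 0.12 (edgeR adjusted p = 0.00310). Its level was 82.6 ± 7.90 and 71.3 ± 4.24 CPM in dorsal stress and dorsal control, against 144 ± 11.0 and 139 ± 26.0 CPM in ventral stress and ventral control (SD, n = 3 each). The vesicle priming factor UNC13C had -2.10 ± 0.42 (adjusted p = 0.0177), the calcium sensor DOC2B -0.69 ± 0.15 (adjusted p = 0.0240) and UNC13B, a further priming factor, -0.56 ± 0.14 (adjusted p = 0.0480). The core genes SNAP25 (0.30 ± 0.24), VAMP2 (-0.16 ± 0.25) and SYT1 (-0.18 ± 0.22) did not pass, with adjusted p-values of 0.824 or above. The list's median was -0.12. Its 20.0% called lower stood against 3.07% of all genes tested, and this comparison was not tested.

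Part of these calls depended on single libraries, while the fold changes moved less. UNC13B, with log2 fold changes from -0.64 to -0.50 when each library was left out in turn, lost its call without any library other than ventral control 1 (highest adjusted p = 0.146). DOC2B (-0.76 to -0.61) lost it without dorsal stress 1 or 2, dorsal control 2 or 3, ventral stress 1 or 3, or ventral control 2 (highest 0.0750), and UNC13C (-2.27 to -1.73) without dorsal stress 2 or dorsal control 3 (highest 0.0583). The number of called genes in the release list was 1 without dorsal stress 2 or dorsal control 3. It was 2 without dorsal stress 1, dorsal control 2, ventral stress 1, ventral stress 3 or ventral control 2. With the choroid plexus score as covariate UNC13C kept its call (-3.32 ± 0.60, adjusted p = 0.0381) and the other three did not: STX1A had -0.61 ± 0.21 (adjusted p = 0.0861), UNC13B -0.77 ± 0.24 (0.0796) and DOC2B -0.92 ± 0.26 (0.0738). Within conditions, 1 of the 43 genes of both lists passed in control ewes, STX1A (-0.97 ± 0.17, adjusted p = 0.0307), against 1.00% of all genes tested. In stressed ewes STX1A had the lowest adjusted p of both lists (-0.80 ± 0.17, adjusted p = 0.0858), and 0.444% of all genes tested passed. For stress over control every gene of both lists had an edgeR adjusted p of 0.9998 or above, in each region and averaged.

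**Figure D4:**
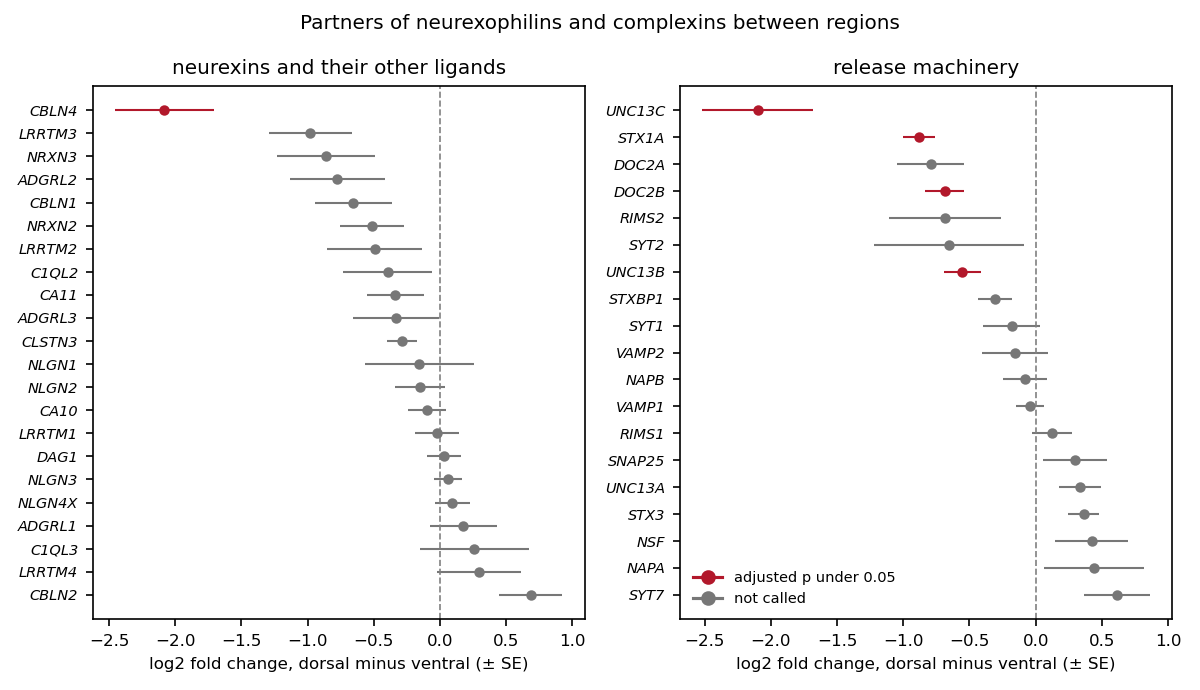
Log2 fold changes, dorsal over ventral, of 22 neurexins and neurexin ligands and 19 genes of the release machinery; points are estimates with bars of 1 SE, and red marks an edgeR adjusted p under 0.05. CBLN4 on the left and UNC13C, STX1A, DOC2B and UNC13B on the right are called, all lower in dorsal tissue.

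The genes whose log2 CPM over the 12 libraries was most like that of NXPH3 were CDH18, a cadherin, KCNK12, a potassium channel subunit, CPLX3, the dopamine receptor DRD1 and the surface protease FAP, with Pearson r from 0.983 to 0.989. For CPLX3 they were NTNG1, an axon guidance protein, NXPH3, the peptide receptor VIPR1, DRD1 and GAP43, a growth cone protein, with r from 0.983 to 0.989. Each of the pair was thus among the 5 genes most like the other, and DRD1 was in both sets. All 12 libraries share the regional split in these correlations. Over deviations from the group means NXPH3 and CPLX3 correlated at 0.77. NXPH4 was most like SCUBE1, FXYD6, CCKBR, NNAT and LAYN (r from 0.968 to 0.987), and CPLX2 most like HPCA, ARHGEF25, SEMA5B, SLC26A10 and LRRC10B (r from 0.974 to 0.979), which had regional log2 fold changes of 1.28 or more. NXPH1 and NXPH2 were each among the 5 genes most like the other (r = 0.981).

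**Figure D5:**
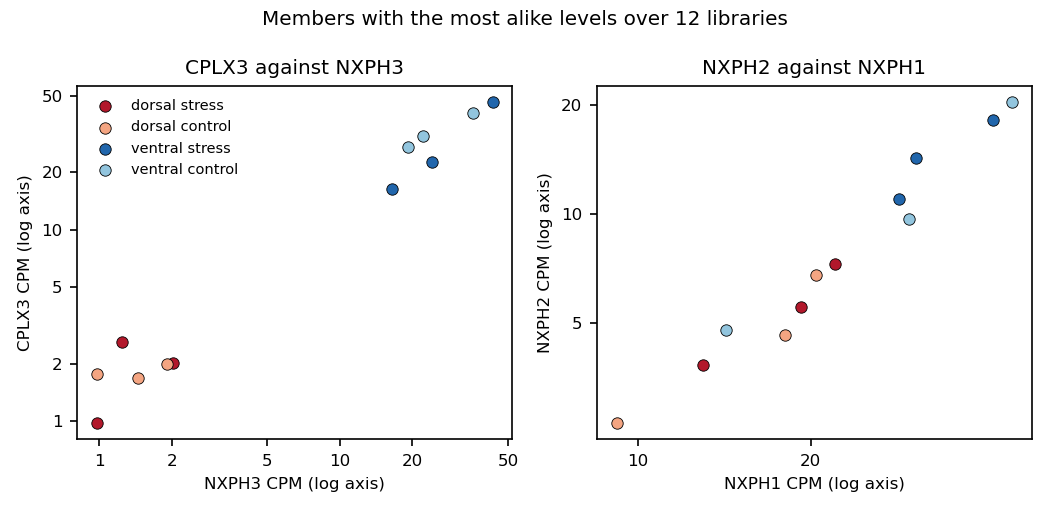
CPLX3 against NXPH3 and NXPH2 against NXPH1 in CPM, both axes on a log scale; points are the 12 libraries, coloured by group. For CPLX3 and NXPH3 the 6 dorsal libraries all lie at or under 2.59 CPM on both axes and the ventral ones at 16.3 CPM or above, whereas NXPH1 and NXPH2 form a single run in which the regions overlap.

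Markers of neuron types also differed between the regions. For scale, edgeR called 3.07% of all genes tested lower and 1.44% higher in dorsal tissue, and no marker list was tested against these shares. Subiculum markers were lower in dorsal tissue in 4 of 7 tested cases, NTNG1, SLC17A6, TSHZ2 and NTS, and their summed level was 86.0 to 129 and 67.5 to 94.1 CPM in dorsal stress and dorsal control, against 179 to 284 and 182 to 310 CPM in ventral stress and ventral control. Of 8 markers of layer 6b and subplate neurons 2 were lower, DRD1 (-3.53 ± 0.32, edgeR adjusted p = 0.000452) and TMEM163 (-1.46 ± 0.22, adjusted p = 0.00436), while CCN2 had -0.07 ± 0.49 and HS3ST4 0.29 ± 0.15 without passing. The summed level of that list was 228 to 248 and 226 to 250 CPM in the dorsal groups, against 254 to 330 and 283 to 326 CPM in the ventral groups, stress before control. Interneuron markers were lower in 4 of 9 tested cases and higher in 1, with sums of 527 to 596 and 584 to 602 CPM in the dorsal groups, against 694 to 753 and 624 to 707 CPM in the ventral groups. Excitatory markers were higher in 2 of 6 cases, with sums of 1509 to 1790 and 1462 to 1515 CPM in the dorsal groups, against 1063 to 1178 and 898 to 1339 CPM in the ventral groups. Dentate granule cell markers were lower in 2 of 5 tested cases, and oligodendrocyte markers higher in 1 of 6. The part of these cell types in the members' regional differences was not tested, and the marker lists were drawn up with earlier results known.

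Of 8 tested markers of the choroid plexus, a tissue that lies against the hippocampus, 3 were higher in dorsal tissue, TTR, AQP1 and CLIC6, and 0 lower. Of all genes tested 1.44% were called higher and 3.07% lower. The list summed to 383 to 999 and 679 to 2847 CPM in dorsal stress and dorsal control, against 60.2 to 80.6 and 63.4 to 426 CPM in ventral stress and ventral control, so that dorsal stress 1 lay below ventral control 1. The choroid plexus score is the mean log2 CPM of these markers, which ran from -1.69 ± 0.65 for KL to 3.54 ± 0.68 for TTR between regions. It partly follows region itself, so fits with it cannot part the score from the regional difference, and their SEs are wider. With this score as a covariate the regional log2 fold change was -3.56 ± 0.60 for NXPH3, -2.99 ± 0.44 for CPLX3, -1.43 ± 0.95 for NXPH4 and 1.32 ± 0.36 for CPLX2. NXPH1 and NXPH2 then had -1.69 ± 0.47 and -2.27 ± 0.58, and CPLX1 2.43 ± 1.17.

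Of the protein-coding genes adjacent to the 8 members in RefSeq (sheep build ARS-UI_Ramb_v3.0) 13 were tested between regions, with a lowest edgeR adjusted p of 0.0829 (HRH2 beside CPLX2, -0.73 ± 0.21). Those beside CPLX3 are ULK3, with a log2 fold change of 0.06 ± 0.14, and LMAN1L, which was too low to test at a mean of 0.244 CPM. NXPH3 lies between SPOP (-0.16 ± 0.28) and NGFR (-0.96 ± 0.34, edgeR adjusted p = 0.191). NXPH4 lies between SHMT2 (-0.22 ± 0.12) and LRP1 (-0.22 ± 0.11). Of 15 genes next but one to a member 2 passed, HNMT beyond SPOPL near NXPH2 (-0.97 ± 0.19, adjusted p = 0.0166) and STAT6 beyond LRP1 near NXPH4 (-0.64 ± 0.11, adjusted p = 0.0102). Among all genes tested 4.51% passed between regions.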

How the data were processed

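RNA with poly(A) tails was made into stranded TruSeq libraries, per the labels' protocols. The authors deposited raw whole-number counts per gene in 1 table, and its 12 columns carry names found in the samples' own descriptions. Tools named in the submitters' processing notes are TopHat2 2.1.1 with Bowtie2 2.3.5.1 and, for counting, featureCounts 2.0.0. Genome build, annotation, strand setting and the treatment of multiply mapped reads were not given in the sources used here, so coordinates are left out and antisense reads cannot be told apart. All 8 members matched a RefSeq gene ID.

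The tests used edgeR 4.0.16 in R 4.3.3: filterByExpr by group, TMM, and a robust quasi-likelihood fit with a mean for each of the 4 groups. Its F test was adjusted by Benjamini-Hochberg over all 17806 genes and called under 0.05. SE is the absolute log2 fold change over the square root of F. DESeq2 1.42.0, limma-voom (limma 3.58.1) and the alternatives of the closing section were run beside it, and the scripts were tested on simulated data. There, for stress averaged over regions, edgeR called 17 of 100 genes given a log2 change of 1 in either direction. It called 71 of 99 genes given a change of 2, so in that setting most changes of the smaller size went uncalled. The simulated counts were drawn independently for each gene around a single mean over all libraries. They held no regional difference and no component shared between genes such as PC1, so these numbers need not hold for the real libraries. A level of 1 CPM stands for about 12.3 to 53.8 counts before TMM scaling. No libraries of a group agreed within sampling noise (chi-square per degree of freedom of 20.2 or more). Replicate numbers come from the labels, which do not say what a number shares. Deviations from the group means of same-numbered stress and control libraries correlated at 0.71, 0.32 and 0.28 in dorsal and 0.24, 0.31 and 0.79 in ventral tissue. Between regions they correlated at 0.21, -0.23 and 0.76 in stressed and 0.72, -0.12 and 0.37 in control ewes. Some libraries were more alike across numbers, such as dorsal stress 3 with dorsal control 2 at 0.57. Of 36 best matches between groups, each picked from the 3 libraries of another group, 20 were with the own number. That is more than an even pick among 3 would give on average, although the matches are not independent. Stress and control pools of the same number held different ewes, and what a number shares was not tested. The main tests and intervals used no pairing by number, for stress or between regions. Blocks on the replicate number were run as alternatives only.

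All members are named. From the 2 lists, called genes and otherwise up to 4 per comparison by smallest p were to be named, and for likeness the 5 genes with a symbol and a mean log2 CPM of at least 1 that had the highest Pearson r. Neurexins, neuroligins, core SNARE genes, markers and neighbours named beyond that rule were chosen after their values were seen. Some genes of the lists are counted but not reported here by name. Members and lists were chosen with earlier results of these data known.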

Additional observations from a re-analysis of the deposited data

How the results depend on the processing

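The count of members called for stress stayed at 0 in all 22 alternatives (the block within condition gives the difference of the stress effects alone), and no member's adjusted p fell under 0.05. Of 595 stress values of members under alternatives 82 had the opposite sign and 15 moved by over 1 SE, none of them called. The number of members without overlap between regions stayed at 4 with RLE size factors, thinned counts and without each library except ventral control 1, where it was 6. Of the 154 regional member values 8 moved by over 1 SE, 7 of them with the choroid plexus score, and 2 changed sign, both of CPLX1. The neurexin list held 1 called gene, but 2 with DESeq2, 4 with the replicate block, 2 with the block within condition, 0 with the choroid plexus score and 1 to 3 leaving out libraries. The release list held 4, but 6 with DESeq2, 3 with limma-voom or with no filter, 7 with the replicate block, 1 with the choroid plexus score and 1 to 5 leaving out libraries. With the first residual factor as covariate, chosen after seeing the data and fitted from the same counts, 11 and 12 were called, and 409 genes for stress averaged over regions, among them 0 members (lowest adjusted p = 0.168, NXPH2). Over all genes 803 were called between regions, against 1558 with DESeq2, 1375 with the replicate block, 160 with the choroid plexus score, 3761 with the first residual factor, and 420 (without dorsal stress 2) to 1091 (without ventral control 1) leaving out libraries. The cause of these changes was not tested. Beyond these counts of genes between regions, the replicate block changed no call of a member for stress. Among the 7 members tested NXPH4 had the lowest count, 6 in dorsal stress 3.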
